A study of Mus musculus with 6 samples.

Results

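The Dnah genes encode the axonemal dynein heavy chains, and the peaks of methylated DNA in 10 of them were examined here: Dnah1, Dnah2, Dnah5, Dnah6, Dnah8, Dnah9, Dnah10, Dnah11, Dnah14 and Dnah17. The 10 were chosen by family name and selected on the peaks in their bodies, which were already known, out of 15771 protein-coding genes on the sequence that the peak list covers. All 10 were found in the RefSeq gene table of GRCm38.p6. Their number of peaks, density, peak positions, widths and values all belong to the way the set was drawn up, so they are given as a description and no test was run on them.

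Dyneins are motors that walk along microtubules. Each heavy chain carries a ring of AAA+ modules that hydrolyses ATP and a stalk that grips the microtubule. In the axoneme of motile cilia and sperm flagella they form the outer and inner arms that slide neighbouring doublet microtubules and so produce the beat, and their loss causes primary ciliary dyskinesia or male infertility. Chondrocytes carry a non-motile primary cilium, which has no dynein arms. MBD2, the protein used to enrich the DNA, binds methylated CpG, and DNA methylation is common in the bodies of mammalian genes.

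Methylated DNA was captured and sequenced (MBD-seq) from 6 primary cultures of chondrocytes, taken from knee articular cartilage of mice at postnatal day 3 to 5. The labels give the genotype of the 3 control cultures as Dnmt1 flox, without its zygosity, and that of the 3 conditional knockout (cKO) cultures as Prx1-Cre;Dnmt1 flox/flox. Prx1-Cre acts in limb bud mesenchyme and its descendants, so the deletion is not limited to chondrocytes, and Dnmt1 is the methyltransferase that maintains CpG methylation through DNA replication. The values analysed come from 1 list of 84111 peaks, called after 3 datasets had been merged. The peak names do not say whether those datasets were control or cKO, although the authors titled the list as methylation that Dnmt1 mediates. No peak has a value for any sample, so control and cKO could not be compared, no spread between animals can be given, and depth per sample is unknown. The list holds no expression values, so the cell type was not checked against cartilage markers.

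Promoters are shown first, the 2 that carried a peak and then those of the 2 genes with the densest bodies. The windows below run from 250 bases before to 50 bases after the RefSeq start, 5′ to 3′ on the gene's own strand, from RefSeq (GRCm38.p6), and capitals mark each CG, the dinucleotide at which methylation is read.
Dnah8 (chr17:30626686-30626985, plus strand, overlapped by a peak): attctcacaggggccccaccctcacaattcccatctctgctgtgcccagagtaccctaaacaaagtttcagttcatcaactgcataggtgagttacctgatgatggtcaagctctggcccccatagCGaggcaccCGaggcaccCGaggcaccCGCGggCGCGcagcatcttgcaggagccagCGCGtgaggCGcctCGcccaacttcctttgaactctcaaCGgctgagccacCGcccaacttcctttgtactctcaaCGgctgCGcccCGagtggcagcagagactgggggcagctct
Dnah14 (chr1:181576343-181576642, plus strand, overlapped by a peak): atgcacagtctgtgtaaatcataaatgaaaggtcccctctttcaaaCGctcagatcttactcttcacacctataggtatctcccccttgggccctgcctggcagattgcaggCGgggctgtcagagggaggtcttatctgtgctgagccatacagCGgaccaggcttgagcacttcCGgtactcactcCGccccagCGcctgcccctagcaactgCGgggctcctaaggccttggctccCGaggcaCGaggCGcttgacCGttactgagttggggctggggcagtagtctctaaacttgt
Dnah17 (chr11:118129170-118129469, minus strand, no peak): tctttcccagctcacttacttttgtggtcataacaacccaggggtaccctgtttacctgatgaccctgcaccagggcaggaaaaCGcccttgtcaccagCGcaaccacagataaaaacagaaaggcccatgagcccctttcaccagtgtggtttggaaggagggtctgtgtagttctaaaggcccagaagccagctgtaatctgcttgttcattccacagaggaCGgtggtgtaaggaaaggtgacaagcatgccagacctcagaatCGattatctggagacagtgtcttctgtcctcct
Dnah10 (chr5:124724835-124725134, plus strand, no peak): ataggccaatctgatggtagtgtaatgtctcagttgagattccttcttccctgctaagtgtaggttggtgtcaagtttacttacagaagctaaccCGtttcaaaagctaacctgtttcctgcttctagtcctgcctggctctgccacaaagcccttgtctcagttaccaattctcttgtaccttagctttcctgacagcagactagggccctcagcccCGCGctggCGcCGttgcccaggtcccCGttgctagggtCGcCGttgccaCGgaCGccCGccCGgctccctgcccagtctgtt

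The Dnah8 promoter held 16 CG and the Dnah14 promoter 11, against 4 for Dnah17 and 12 for Dnah10. Over the 15401 windows of protein-coding genes on covered sequence the median was 14, and 96.1% of them held at least 1 CG. Each of the 10 Dnah genes had 1 such window, with 4 to 16 CG. Those of Dnah1, Dnah5, Dnah6 and Dnah17 lie inside bodies that the gene table extends further upstream. The extension is longest at Dnah5, where the window begins at chr15:28203516 and the body at chr15:28154854. It lies in the first 75.5 kb of that body, which held no peak. The density and peak positions of Dnah5 given below include this stretch. The peak at Dnah14 (chr1:181576326-181576733, 408 bp) covered all 300 bases, with a fold enrichment of 17.2. The one at Dnah8 (chr17:30626699-30627141, 443 bp) covered 287 bases and all 16 CG, with a fold of 17.6. Fold enrichment is the authors' value for a peak over the peak caller's background. The midpoints of both peaks lay just before the start of the gene body, so neither is among the body peaks counted below.

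Among the windows of all protein-coding genes, 2.96% were overlapped by a peak, against 2 of the 10 here. The share differed with the number of CG. It was 0.731% for windows with up to 2 CG, 3.50% with 3 to 5 and 10.3% with 6 to 10. With 11 to 20 CG it was 3.52%, and with 21 or more 0.787%. Dnah17 and Dnah10, which have the densest bodies, had no promoter peak, as was so for most protein-coding windows. Of the 2 genes with one, Dnah8 had 16.9 peaks per 100 kb in its body and Dnah14 had 5.45. The nearest peak to the Dnah17 window lay 1.93 kb away and that to the Dnah10 window 2.32 kb away. At Dnah1 the distance was 0.779 kb, whereas at Dnah5, Dnah9 and Dnah11 it was 26.5, 26.3 and 28.6 kb.

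The 10 gene bodies held 252 peaks over 2079 kb, or 12.1 peaks per 100 kb, against 5.69 for all protein-coding genes together. All 10 had at least 1 peak, as did 64.7% of protein-coding genes and 93.7% of the 2620 other protein-coding genes in the same span of lengths (65.5 to 337 kb). Density ranged from 1.19 peaks per 100 kb in Dnah9 to 49.5 in Dnah17. Dnah17, Dnah8, Dnah10 and Dnah2 together held 168 of the 252 peaks (66.7%).

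**Figure D1:**
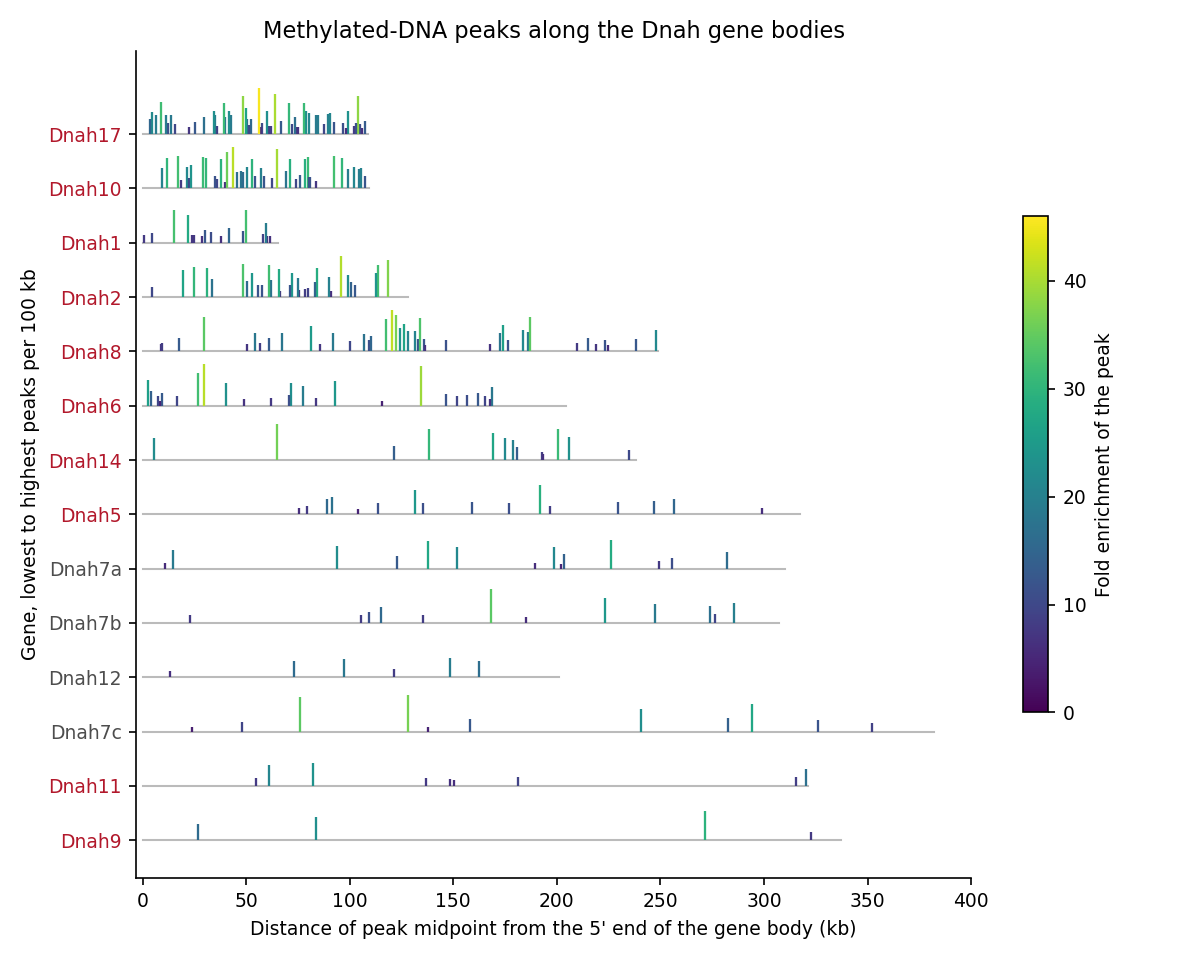
Each line is 1 Dnah gene body drawn from its 5′ end, with distance in kb on the horizontal axis, and each vertical stroke is a peak whose height and colour give its fold enrichment. Genes are ordered by peaks per 100 kb, with the 10 examined genes in red and 4 other Dnah genes in grey; strokes are crowded in Dnah17 (54 peaks in 109 kb) and sparse in Dnah9 (4 peaks in 337 kb).

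The outer-arm chains held both extremes. Of the beta-type chains, Dnah17, a chain of the sperm flagellum, had 54 peaks in its body (chr11:118021723-118130719, minus strand), 49.5 per 100 kb. Dnah9, its counterpart in airway cilia, had 4 (chr11:65831324-66168581, minus strand), 1.19 per 100 kb. Dnah11, whose loss in mice disturbs left-right asymmetry of the organs, had 9 (chr12:117877982-118199043, minus strand), 2.80 per 100 kb. Dnah17 is thus higher than its close relatives both in the number of peaks and in density, although its body is the shortest of the 3, at 109 kb against 337 and 321 kb.

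The gamma-type outer-arm chains differed as well. Dnah8, a testis chain, had 42 peaks (chr17:30626935-30875762, plus strand), 16.9 per 100 kb. Dnah5, the gamma chain of airway and nodal cilia and a frequent site of mutations in primary ciliary dyskinesia, had 16 (chr15:28154854-28472045, plus strand), 5.04 per 100 kb. Dnah8 is the shorter of these 2, at 249 kb against 317 kb. In both types the densest gene was thus also the shortest, and a relation of density to tissue was not tested.

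Among the inner-arm chains, Dnah10 and Dnah2 are the heavy chains of the f dynein, also called I1. Dnah10 had 41 peaks (chr5:124725085-124834308, plus strand), 37.5 per 100 kb, and Dnah2 had 31 (chr11:69420807-69549108, minus strand), 24.2 per 100 kb. Dnah1, an inner-arm chain needed for sperm flagella, had 17 peaks in the shortest body of the 10 (chr14:31260375-31325891, minus strand), 25.9 per 100 kb. Dnah6, another inner-arm chain, had 25 (chr6:73017603-73222227, minus strand), 12.2 per 100 kb. Dnah14, a less studied axonemal chain, had 13 (chr1:181576593-181814932, plus strand), 5.45 per 100 kb. Outer-arm chains ran from 1.19 to 49.5 peaks per 100 kb, and inner-arm chains, with Dnah7a, Dnah7b, Dnah7c and Dnah12 described further on, from 2.88 to 37.5, so the ranges overlapped.

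Each gene was next set against protein-coding genes within 25% of its own length, between 310 and 1490 genes per class. For the lengths of the 10, these classes would give 95.1 peaks in all, so the 252 observed were 2.65 times as many. In 9 of the 10 the density was above the median of the class, and 50% of genes in this span of lengths are above theirs. Dnah9 was the exception, with 0.445 of its class median of 2.66 peaks per 100 kb, and 54 of 312 genes in its class had a lower density.

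Dnah17 had a higher density than all 1119 genes in its class, 11.4 times the class median of 4.34. Dnah10, nearly the same length, was exceeded by 2 of 1117 genes and stood at 8.60 times its class median. Dnah2 was exceeded by 10 of 939 (5.91 times), Dnah8 by 9 of 445 (5.18 times), Dnah1 by 27 of 1490 (5.05 times) and Dnah6 by 38 of 554 (3.29 times). These 6 genes had few members of their class above them, whereas the remaining 4 lay nearer the middle or below it. Dnah5 stood at 1.88 times its class median, Dnah14 at 1.61 times and Dnah11 at 1.05 times. For scale, the 2 protein-coding genes equally close in length to Dnah17, Rgs7bp on chromosome 13 and Rnf165 on chromosome 18, had 7 and 12 peaks, or 6.42 and 11.01 per 100 kb, and the one closest to Dnah9, Macf1 on chromosome 4, had 9 or 2.66 per 100 kb.

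**Figure D2:**
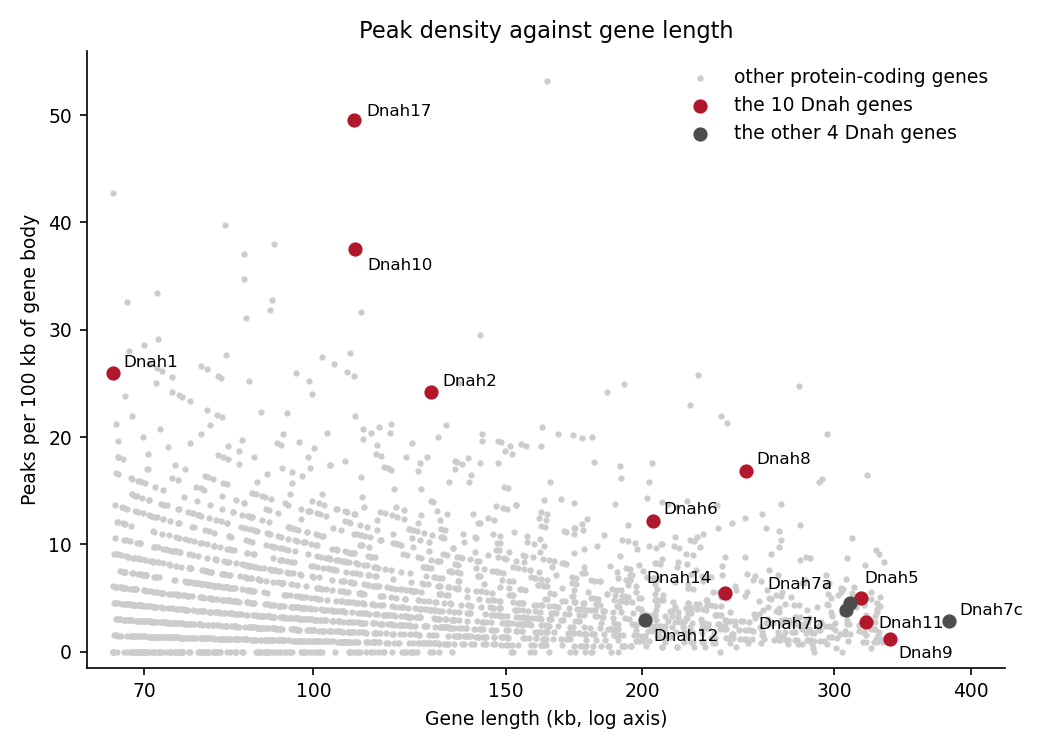
Peaks per 100 kb of gene body (vertical axis) against gene length in kb (horizontal log axis) for protein-coding genes of 65.5 to 337 kb (light grey), the 10 Dnah genes (red) and 4 other Dnah genes (dark grey). Dnah17 at 49.5 and Dnah10 at 37.5 lie at the top edge of the cloud at their length, and Dnah9 at 1.19 lies in its lower part.

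Density tended to fall with length among the 10 genes. The 4 bodies under 150 kb had 24.2 to 49.5 peaks per 100 kb and the 6 longer ones 1.19 to 16.9. Spearman's rho between length and density was -0.93 over the 10 genes, -0.85 over all 14 Dnah genes on covered sequence and -0.10 over the 2620 other genes in the same span. Length is the divisor of density in each of these sets, so all these values share a term, and neighbouring genes share the same library. The 10 genes were also selected on these peaks, unlike the 2620 others. The difference between the values of rho is therefore not a result about the family.

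The sequence beside each gene offered a local comparison. In the 100 kb on either side of the 10 bodies lay 153 peaks, 7.65 per 100 kb, of which 75 were upstream and 78 downstream. The body exceeded its flanks in 8 of the 10 genes, while 45.8% of genes of this span of lengths exceed theirs. The ratio of body to flanks was 5.83 for Dnah17, 3.41 for Dnah10, 3.36 for Dnah5, 2.16 for Dnah1, 2.04 for Dnah6, 1.99 for Dnah8, 1.87 for Dnah11 and 1.61 for Dnah2. Dnah5 and Dnah11 had few peaks beside them, 1.5 per 100 kb each. Dnah14 and Dnah9 lay below theirs. Dnah14 had 10.5 peaks per 100 kb beside it and 5.45 in its body, and Dnah9 had 2.0 and 1.19. Dnah2 had the richest surroundings of the 10, 15.0 per 100 kb, with 21 peaks in the 100 kb downstream and 9 upstream.

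**Figure D3:**
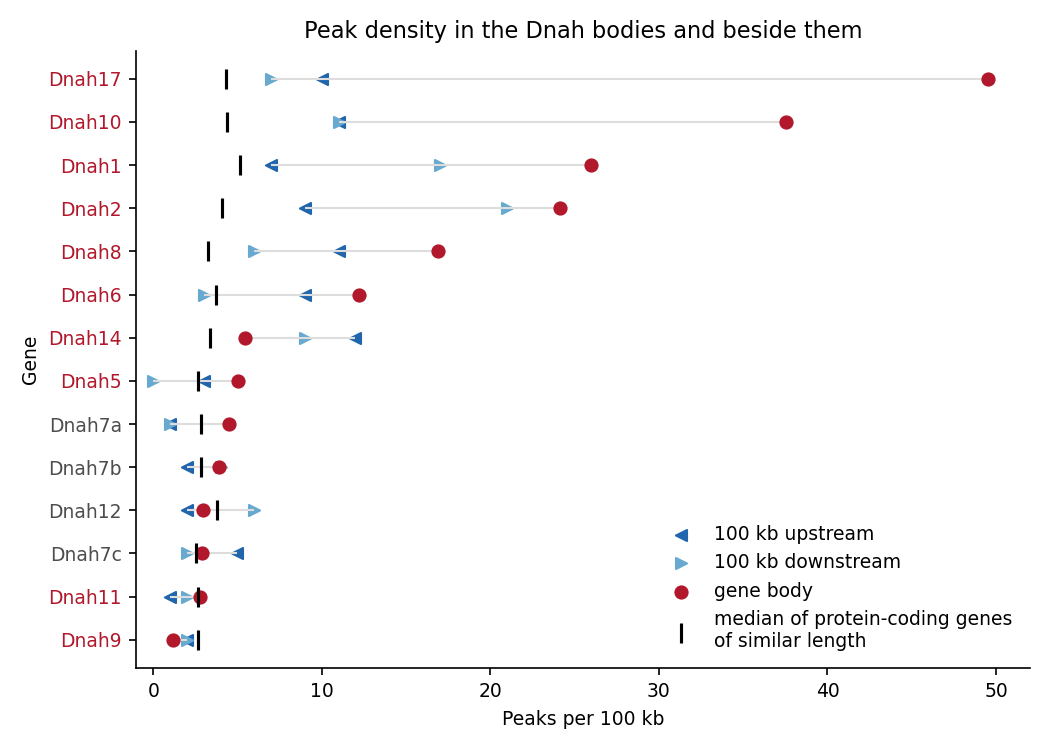
Peaks per 100 kb in each Dnah gene body (red circle), in the 100 kb upstream and downstream (blue triangles) and the median of protein-coding genes of similar length (black bar). The red circle stands right of both triangles in Dnah17 (49.5 against 10 and 7) and Dnah10 (37.5 against 11 on each side), and left of both in Dnah14 and Dnah9.

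The peaks were spread over the bodies rather than gathered at the ends. Each body was divided into 3 parts of equal length. The part nearest the 5′ end held 66 of the 252 peaks (26.2%), the middle part 98 (38.9%) and the part nearest the 3′ end 88 (34.9%). In the 2025 other genes of this span of lengths with a known strand the shares were 24.6%, 30.2% and 45.3%. In Dnah2 17 of 31 peaks were in the middle part. Dnah6 had 11 of 25 nearest the 5′ end, and Dnah14 had 9 of 13 nearest the 3′ end. Dnah9 had 2 in each of the outer parts and none in the middle part.

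**Figure D4:**
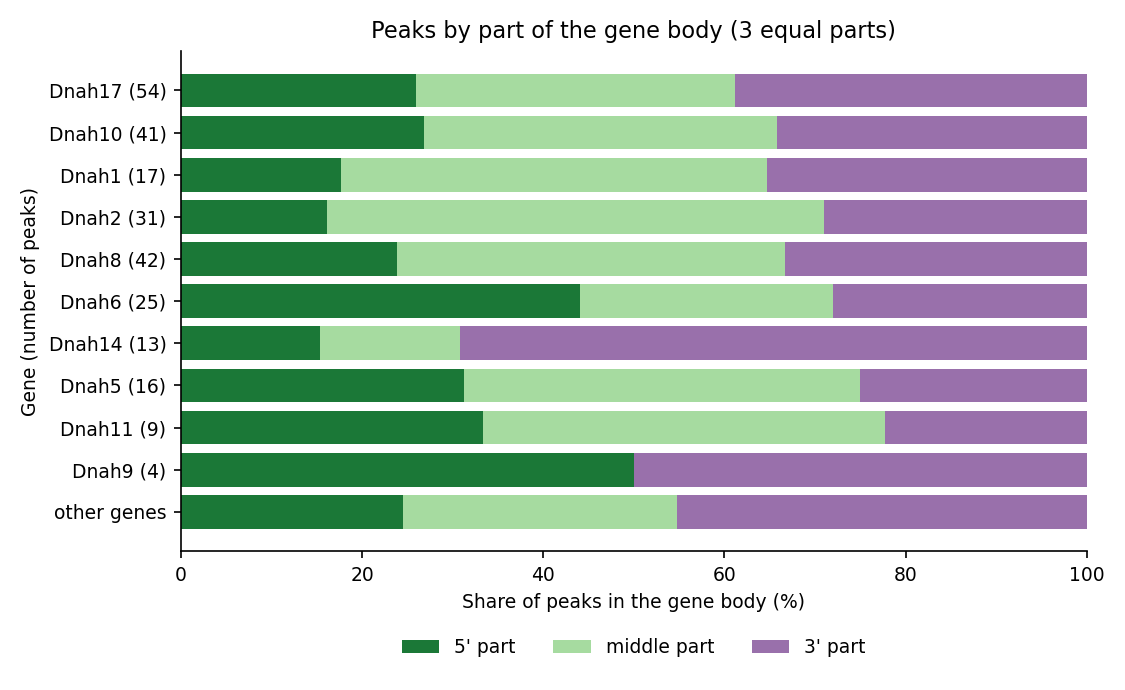
Share of the peaks of each of the 10 Dnah gene bodies (in percent, number of peaks in brackets) that lay in the 5′, middle and 3′ of 3 equal parts of the body, with the 2025 other genes of similar lengths at the bottom. The middle part is widest in Dnah2 (17 of 31 peaks) and the 3′ part in Dnah14 (9 of 13 peaks).

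A peak of the body lay within 1 kb of a gene end in 3 of the 10 genes, against 16.6% of protein-coding genes. The one in Dnah1 (chr14:31324925-31325068, fold 7.87) was near the 5′ end. Those in Dnah8 (chr17:30874528-30875222, fold 21.6) and Dnah11 (chr12:117878313-117878683, fold 16.8) were at the 3′ end. The Dnah11 peak was also inside Cdca7l, a protein-coding gene that overlaps this end. At Dnah17, 1 peak (chr11:118023217-118023560) was also inside the overlapping Pgs1. In Dnah1, 11 of the 17 peaks were also inside the lncRNA gene Gm35823, and in Dnah8 2 of 42 were inside the lncRNA gene Gm41561. The gene table holds no exons, so whether peaks lay in exons or introns was not analysed here.

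Spacing differed as widely as density. Neighbouring midpoints in Dnah17 were a median of 1.40 kb apart, 19 neighbouring pairs were within 1 kb, and the longest stretch without a peak was 6.99 kb. Its densest 10 kb held 8 peaks, a number shared by several windows along the body, among them chr11:118023388-118033387. The median spacing was 2.19 kb in Dnah10, whose densest 10 kb held 7 peaks, and 2.95 kb in Dnah2. By contrast it was 16.4 kb in Dnah11 and 57.1 kb in Dnah9, where 188 kb, 55.7% of the body, held no peak. Peaks covered 22.4% of the Dnah17 body, 17.5% of Dnah10 and 10.7% of Dnah2, but 0.686% of Dnah11 and 0.54% of Dnah9. The median over the 2620 other genes of this span was 1.67% (quartiles 0.777% and 3.23%), and the highest was 28.8%.

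The genes were selected on the peaks in their bodies. Against all protein-coding bodies, these 10 included, the 252 peaks differed less in width and fold than in number. They had a median width of 413 bp (quartiles 273 and 534 bp), against 393 bp over 44414 peaks in protein-coding bodies. Their median fold was 15.5 (quartiles 9.77 and 23.2) against 13.7, and the fold was at least 20 in 92 of them (36.5%) against 30.9%. The median −log10 q, the authors' significance value, was 108 against 95.3. A width over 1 kb was found in 8 of the 252 (3.17%), against 4.10%.

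By gene, the median fold ran from 8.41 in Dnah11 and 10.0 in Dnah1 to 20.1 in Dnah10 and 21.7 in Dnah14. Density and fold did not order the genes alike. Dnah14, with 13 peaks, had a fold of at least 20 in 8 of them, and Dnah10 in 21 of 41, whereas Dnah1, at 25.9 peaks per 100 kb, had 3 of 17. Dnah17 lay between, with a median fold of 16.7 and 18 of 54 peaks at 20 or more. Dnah11 also had the narrowest peaks, a median of 191 bp against 294 bp in Dnah1 and 508 bp in Dnah14.

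The read pileup at a peak, solved from the deposited fold and p, ran from 43 to 665 reads over the 252 peaks, with a median of 124. A background of 6.37 reads, the lowest common value in the list, which a caller of this kind takes from a genome-wide average, was shared by 224 of them (88.9%), close to the 85.1% of all peaks in protein-coding bodies. The share was lowest in Dnah9 (3 of 4) and Dnah6 (19 of 25). Dnah6 also held the lowest fold of the 252, 4.32, in a wide peak of 1799 bp (chr6:73105604-73107402).

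**Figure D5:**
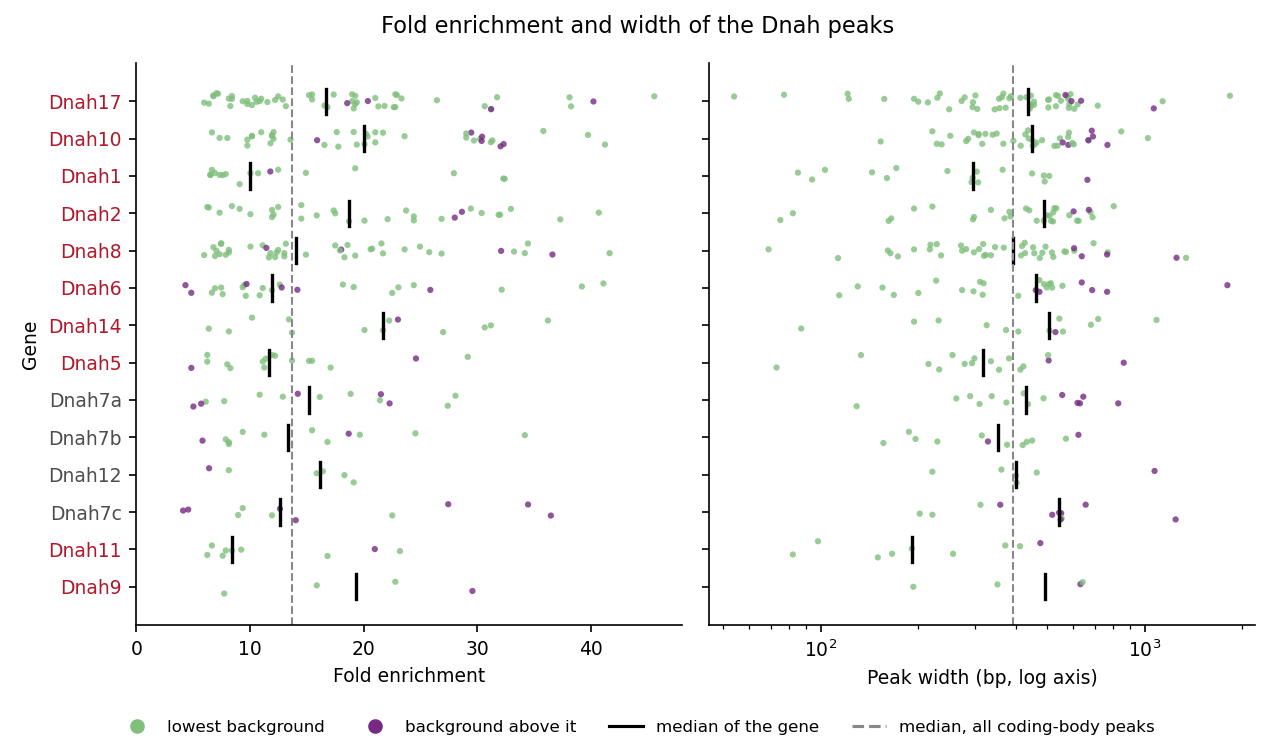
Fold enrichment (left) and width in bp on a log axis (right) of every peak in the Dnah gene bodies, with green points at the lowest background and purple points above it, black bars at the median of each gene and a dashed line at the median of all peaks in protein-coding bodies (13.7-fold and 393 bp). Medians of Dnah11 (8.41-fold, 191 bp) lie left of both lines, and the peaks of Dnah17 and Dnah10 span nearly the whole range of folds.

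The strongest peak of each gene lay inside the body, away from both ends. The highest fold of all 252 was 45.6, in Dnah17 (chr11:118074000-118074620, 621 bp), 51.8% of the way along the gene, with 335 reads over the lowest background. The highest in Dnah8, 41.6, belonged to a peak of 1341 bp (chr17:30746704-30748044) at 48.4%, which was followed by a second of 1253 bp (chr17:30748461-30749713) with a fold of 36.6. In Dnah10 it was 41.2 (chr5:124768614-124769210) at 40.1%, in Dnah6 41.1 (chr6:73192493-73193049) at 14.4% and in Dnah2 40.7 (chr11:69452859-69453538) at 74.8%. The remaining 5 genes had lower maxima: 36.2 in Dnah14 (chr1:181641051-181641595), 32.4 in Dnah1 (chr14:31310645-31311135), 29.6 in Dnah9 (chr11:65896937-65897569), 29.2 in Dnah5 (chr15:28346621-28347123) and 23.2 in Dnah11 (chr12:118116789-118117200).

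Dnah9, the sparsest gene, held 1 peak below and 3 above the median fold of coding-body peaks. Besides the strongest, they were at chr11:65845957-65846149 (fold 7.73), chr11:66084682-66085324 (fold 22.8) and chr11:66141883-66142233 (fold 15.9). In Dnah11, by contrast, the median of the 9 peaks was a fold of 8.41.

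The list also covers 4 other Dnah genes, all encoding inner-arm chains, which had 43 peaks in all, 3.58 per 100 kb. Dnah12 (chr14:26691554-26892719, plus strand) had 6, or 2.98 per 100 kb, below its class median of 3.76. Dnah7a, Dnah7b and Dnah7c on chromosome 1 had 14, 12 and 11, or 4.51, 3.90 and 2.88 per 100 kb, which was 1.14 to 1.61 times their class medians. These 3 are closely related copies, between which short reads may be misassigned. Of the 43 peaks, 28 were at the lowest background (65.1%, against 88.9% in the 10 genes), and in Dnah7c it was 4 of 11. The part of read assignment in these values was not tested. None of the 4 promoter windows was overlapped by a peak, and the Dnah12 window held 1 CG. Dnah3, on chromosome 7, was not analysed here.

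Other genes of the axoneme and of dynein were counted from lists. All 8 genes for the smaller axonemal dynein chains had a peak in the body, against 64.7% of protein-coding genes. The median gene length was 44.6 kb in this list and 18.6 kb over all protein-coding genes, and the list comparisons were not matched for length. The list held 43 peaks, 12.1 per 100 kb. The most were in Wdr63, an inner-arm intermediate chain, with 22 (32.6 per 100 kb), followed with 5 each by Dnaic2, an outer-arm intermediate chain (13.7 per 100 kb), and Wdr78 (6.56). For dynein assembly factors it was 3 of 6 genes: Dnaaf5, Cfap298 and Spag1. For docking and ruler proteins it was 6 of 7, led by Ccdc40, part of the ruler that spaces the inner arms, with 13 (35.4 per 100 kb). Spokes and central pair had 13 of 14, with 4.15 peaks per 100 kb over the list against 5.69 for protein-coding genes; without its longest gene, Spag16, which was left out after the values were seen, the list had 6.36.

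Regulators of motile ciliogenesis had a peak in 5 of 8 bodies, including Foxj1, the main transcription factor of motile cilia, with 2. Cytoplasmic dynein had 11 of 13, and its heavy chain gene Dync1h1 had 28 peaks (42.7 per 100 kb). Its body is 65.55 kb long, close to the 65.52 kb of Dnah1, which had 17 peaks. Pooled over the list, cytoplasmic dynein had 11.1 peaks per 100 kb, docking and ruler proteins 6.31, the regulators 5.24 and assembly factors 4.62. With the longest gene of each left out, also after the values were seen, these became 17.0, 11.4, 8.94 and 9.38. The last 2 thus moved from below to above the 5.69 of protein-coding genes. The median density per gene was 8.23 peaks per 100 kb for cytoplasmic dynein, 8.12 for the smaller axonemal chains and 7.91 for spokes and central pair. It was 4.58 for the regulators, 2.98 for docking and ruler proteins and 1.68 for assembly factors, against 4.14 over all protein-coding genes. The lists differ in gene length and were not matched for it.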

How the data were processed

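Per the submitters' processing notes, fastp, Bowtie2 and MACS2 were used with builds mm10 and GRCm38; roles and versions are not given in the sources used here. Per the peak names in the deposited list, 3 datasets were merged with Samtools before calling. In the deposited list, fold is each peak's ratio to the background of the caller, significance is given as −log10 p and −log10 q, and the score restates the −log10 q. The lowest −log10 q was 20.004. An incomplete last line was left out; the list covers chromosomes 1 to 5 and 10 to 19 and chromosome 6 to position 88818859.

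Peaks were counted by midpoint in RefSeq gene bodies (GRCm38.p6) beyond the first 3 Mb of a chromosome (Python 3.11.15, pandas 2.3.3, scipy 1.17.1). Strand came from the RefSeq promoter table. Assuming MACS arithmetic, a whole pileup was solved from fold and p. A match within 1% of the step between pileups was found for 99.97% of peaks. On 5000 peaks simulated with the same arithmetic, this gave the right pileup in 100% of cases. That checks the solving step and cannot show that the deposited values follow the assumed arithmetic. Members, gene lists and alternatives were chosen with earlier results of these data known. Named genes were the 10, other Dnah genes on covered sequence, the closest in length to the densest and the sparsest, overlapping genes that share a peak, gene-end peaks, each gene's strongest peak, and list genes.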

Additional observations from a re-analysis of the deposited data

How the results depend on the processing

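No paired analysis was possible because peaks carry no values by sample; no replicate could be left out either. Of the alternatives tried, filters on strength changed the size and typical values of the set by construction. A −log10 q of at least 100 left 129 peaks with a median fold of 23.1 and width of 532 bp, one of at least 50 gave 19.7 and 485.5 bp, and dropping peaks below the median fold of the list left 140, with 22.7 and 510.5 bp. The ratio to genes of similar length was 2.65, and 3.07 when peaks below the median fold were dropped. It lay between 2.42 and 2.92 under the other alternatives (the lowest with peaks merged within 500 bp). Leaving out 1 gene at a time gave 2.24 (without Dnah17) to 3.02 (without Dnah9), 198 to 248 peaks, a median fold of 14.5 to 16.2 and a median width of 386 to 422 bp. Between 7 and 9 of the 10 genes lay above their class median. Dnah9 was below it in every alternative, Dnah11 at or below it with a −log10 q of at least 50 or 100, without the peaks below the median fold and with classes within 50% in length, and Dnah5 at a −log10 q of at least 100. An alternative added after the data were seen left out the longest gene of each of the 6 other lists, which raised the pooled density of every list. Counting by any overlap added the 2 promoter peaks, for 254. CpG density was not analysed along the bodies, and a gap between peaks does not show that methylation is absent there.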

Other observations

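Among the 2620 other protein-coding genes in the span of lengths of the 10 Dnah genes, only Cit, which encodes citron kinase of cytokinesis, had a higher peak density than Dnah17, with 87 peaks or 53.1 per 100 kb on chromosome 5. The next were Dync1h1 (42.7), Lrp1 (39.8), a receptor of the LDL receptor family, and Trrap (38.0), a large scaffold protein of histone acetyltransferase complexes, so that Dnah10 ranked 6 of 2630 genes with the Dnah genes included. Wdr63, another dynein gene, was among the 10 densest of the 2620 with 32.6. These genes were picked out after their values were seen, and no test was run.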
